A study of Oryza sativa Japonica Group with 5 samples.

Results

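A stretch of 200 neighbouring loci on chromosome 11 of rice (Oryza sativa, Japonica Group), from Os11g0420200 to Os11g0485200, was followed in leaves of the mutant pls4 and of wild type plants. Its members are all loci of the deposited tables with an identifier between these ends, 200 of the 36475 loci listed and 200 of the 2273 on chromosome 11. Identifiers of the Rice Annotation Project hold the chromosome (11) and a number that runs along it, so sorting them as text walks the chromosome. The stretch was chosen by its FPKM values in these same libraries, because many of its transcripts were present in wild type and missing in pls4. Its count of missing transcripts and its calls are therefore a description, with no test that the stretch stands apart.

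The wild type group held 3 leaf libraries and the pls4 group 2, the labels naming mesophyll cells as the cell type of both. The treatment label reads "knockdown" for pls4 and "Non knockdown" for wild type, while the title calls pls4 a mutant with altered susceptibility to sheath blight, a fungal disease. The labels used here do not name the altered gene, the cultivar, the age of the leaf or separate plants. Any p-value behind a call thus rests on a spread between libraries that may be technical.

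Rice chromosome 11 is known for its clusters of disease resistance genes, many of which encode intracellular receptors that detect pathogens. In RNA sequencing a locus is listed at 0 when no fragment was assigned to it as the reference annotates it. The tables hold no sequence and no coordinates, so whether a locus listed at 0 is present in the genome of pls4 was not analysed here. Mature leaf is dominated by mesophyll, whose most abundant nuclear transcripts encode antenna proteins and the small subunit of Rubisco.

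Levels were given as FPKM, the fragments of a locus divided by its length and by the size of the library. The values of a library summed to between 736527 and 758853, and between 18393 and 18538 loci reached an FPKM of 1. Absolute depth is unknown. From the steps of low values, wild type replicate 2 was tentatively 1.31 times as deep as replicate 1, and the rest came to 0.99 to 1.05 times. Zeros mostly recurred between libraries of a genotype. Loci listed at 0 in a library while the others of its genotype were all at 1 or more numbered 9, 5 and 3 in the wild type libraries and 14 and 24 in the pls4 libraries, and with 5 or more in the others there was at most 1 in any library. The summed level of 5 leaf mesophyll markers (Lhcb1, Lhcb2, RBCS2, RBCS4 and RCA) ranged from 25173 to 32609 FPKM in wild type and from 12208 to 15020 in pls4, and all 5 were above 100 in every library. The 3 cellulose synthases of secondary walls, a vascular mark, summed to 1.77 to 3.07 FPKM in wild type and 9.20 to 18.97 in pls4. The summed markers of dividing cells stood at 22.7 to 24.1 and 28.4 to 28.6, those of root at 11.4 to 14.6 and 16.6 to 20.1 (LSI2 at 0 in all 5 libraries), and the seed marker GLUA2 at 3.60 to 4.88 and 3.89 to 4.79. Markers of dividing cells did not move together. CDKB1;1 was higher in pls4, PCNA was lower with no call, and MCM3, MCM5 and MCM6 were at 0.10 FPKM or less. Fewer cells of a type and less RNA per cell cannot be told apart in such bulk samples, and the part of these markers in the results below was not tested.

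Of the 200 members, 91 were expressed, meaning that 2 or more of the 5 libraries reached an FPKM of 1. A locus was counted as lost when it reached 1 in every wild type library and stayed at or below 0.1 in both pls4 libraries. By this count 19 expressed members were lost, which is 20.9% of them, against 62 of 917 expressed loci on the rest of chromosome 11 (6.76%) and 2.65% of all 19637 loci tested. The reverse pattern, absent from wild type and present in pls4, was seen at a single member, where the background was 0.917% of all loci tested and 2.51% of the rest of chromosome 11. Between 85 and 88 members reached an FPKM of 1 in the wild type libraries, and 65 and 63 did in the pls4 libraries.

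**Figure D1:**
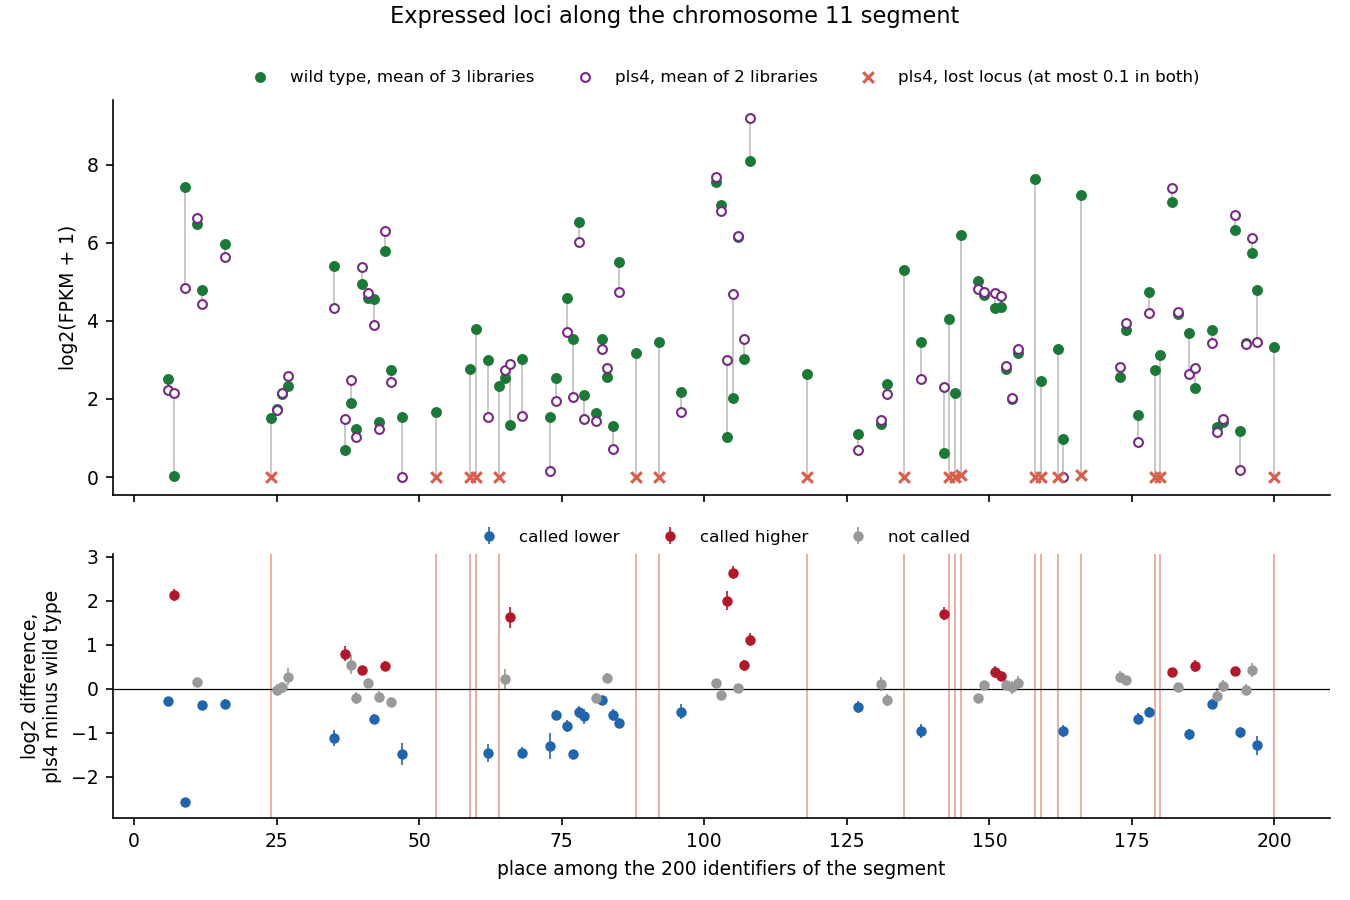
The 91 expressed members are placed by their order among the 200 identifiers of the stretch (x axis). The upper panel gives the wild type and pls4 mean levels as log2(FPKM + 1), with a cross at each of the 19 lost loci; the lower panel gives the log2 difference, pls4 minus wild type, with its standard error for the 72 members that were not lost and a vertical line at each lost locus. Several lost loci stand beside neighbours whose pls4 and wild type means nearly coincide.

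Lost loci included abundant ones. Os11g0474100 was at 204, 188 and 199 FPKM in the wild type libraries and was listed at 0 in both pls4 libraries. Os11g0475500 was at 149, 145 and 154 and then at 0 and 0.06, and Os11g0471100 at 85.2, 61.1 and 68.9 and then at 0.07 and 0. These were the 3 most abundant lost members, and no pls4 library came near the lowest wild type library at any of them. Os11g0465200 stood at 34.6, 35.2 and 46.2 FPKM in wild type and at 0 in both pls4 libraries. Os11g0470600 stood at 17.2, 14.5 and 14.9 and Os11g0438400 at 12.1, 13.5 and 12.9, both with 0 in each pls4 library. With these, 6 of the 19 lost members had a wild type mean of at least 10 FPKM.

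Of the 19 lost members, 16 were listed at exactly 0 in both pls4 libraries. The other 3 (Os11g0471100, Os11g0475500 and Os11g0485200) had a value above 0 in a single pls4 library, and the highest value that any lost member had in pls4 was 0.07. Their wild type means ranged from 1.86 to 197 FPKM with a median of 7.98, and the median was 7.05 among the expressed members that were not lost. On the rest of the chromosome the lost loci had a median wild type level of 3.16 FPKM and the others one of 6.02. Together the lost members carried 22.2% of the wild type FPKM of the stretch, against 2.38% for lost loci on the rest of chromosome 11. At 100 FPKM and over, 2 of 7 expressed members were lost and 0 of 32 loci on the rest of the chromosome. Between 20 and 100 FPKM the counts were 2 of 20 and 10 of 162, between 5 and 20 FPKM 10 of 26 and 10 of 289, and under 5 FPKM 5 of 38 (13.2%) and 42 of 434 (9.68%).

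**Figure D2:**
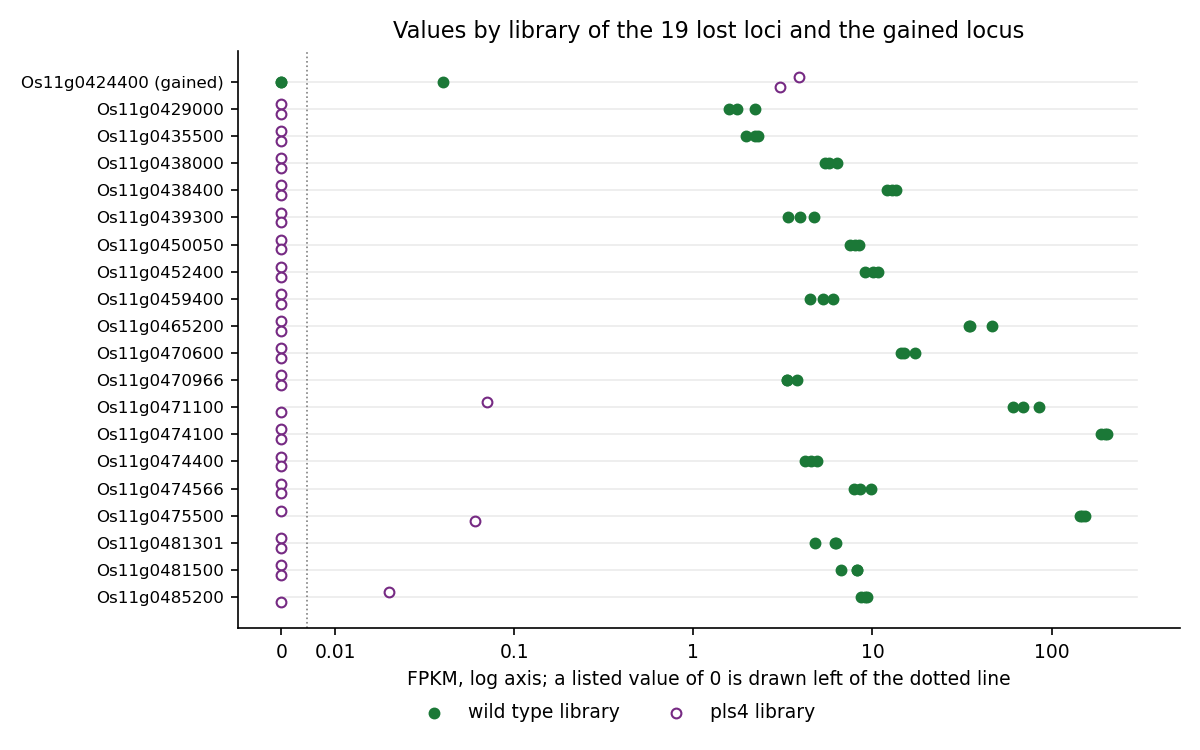
FPKM in each library (x axis, log scale, with a listed 0 drawn left of the dotted line) for the 19 lost members and the gained member, in identifier order from the top. Filled points are the 3 wild type libraries and open points the 2 pls4 libraries; wild type values of the lost members lie between 1.59 and 204 and their pls4 values at or under 0.07.

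Walking from the low end, the first lost member was Os11g0429000 at place 24, with 2.22, 1.59 and 1.76 FPKM in wild type. A denser patch followed between Os11g0434800 and Os11g0439300, where all 6 expressed loci were called lower in pls4. Within it Os11g0435500 (1.98, 2.20 and 2.31 FPKM in wild type), Os11g0438000 (5.42, 6.33 and 5.72) and Os11g0438400 were lost in a row, and then Os11g0439300 (4.73, 3.93 and 3.37). Os11g0434800, which opens the patch, was listed at 0 in both pls4 libraries but missed the definition through a wild type value of 0.99 in replicate 2. Os11g0438700 alone kept a signal, falling from 7.04 ± 1.77 FPKM (SD, n = 3) to 1.92 ± 0.60 (SD, n = 2).

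The next pair was Os11g0450050, at 7.50 to 8.40 FPKM in wild type, and Os11g0452400, at 9.13 to 10.69, both listed at 0 in pls4. Os11g0459400 (4.49 to 6.05) and Os11g0465200 were lost singly. A further trio, Os11g0470600, Os11g0470966 (3.32 to 3.79 FPKM) and Os11g0471100, occupied 3 adjoining identifiers. Another trio, Os11g0474100, Os11g0474400 (4.19 to 4.89) and Os11g0474566 (7.93 to 9.77), was followed by Os11g0475500. Only Os11g0474800 stood between them as an expressed locus, and it too was listed at 0 in both pls4 libraries, missing the definition by a wild type value of 0.77 in replicate 2. Last came Os11g0481301 (4.78 to 6.26), Os11g0481500 (6.66 to 8.23) and, at the closing end of the stretch, Os11g0485200 (8.62 to 9.32 FPKM in wild type, 0.02 and 0 in pls4).

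Lost members fell into 11 groups separated by expressed loci that were not lost, and 13 of the 19 lay beside another lost member in the order of expressed loci (68.4%). On the rest of the chromosome, where losses were less dense, 33 of 62 lost loci did (53.2%). The first 100 identifiers held 7 of them among 43 expressed loci and the second 100 held 12 among 48. The runs of expressed loci that were not lost reached 14 loci in 2 places, from Os11g0429100 to Os11g0434800 and from Os11g0439600 to Os11g0448400. Expressed loci also stood unlost between both trios of the second part. From Os11g0472000 to Os11g0473350, 7 of 8 adjoining identifiers were expressed and none was lost or called lower. Os11g0473000 and Os11g0473100 among them were called higher, with log2 differences of 0.38 ± 0.13 and 0.29 ± 0.10 (SE). In that run Os11g0472500 stood at 25.2, 24.6 and 23.1 FPKM in wild type and 25.6 and 25.9 in pls4, and Os11g0473350, the last before Os11g0474100, at 8.02 ± 1.79 and 8.75 ± 0.14 (these loci were chosen after their values were seen).

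By the size of the change, members were spread as follows. Among the 87 expressed members with a wild type mean of at least 1 FPKM, the pls4 mean was listed at 0 or lay under 0.02 of the wild type mean at 20 members (23.0%). Between 0.02 and 0.25 of it lay 3 members (3.45%), between 0.25 and 0.5 lay 9 (10.3%), and between 0.5 and 2 times lay 51 (58.6%). These 4 classes held 7.93%, 4.14%, 5.80% and 74.7% of 845 loci on the rest of the chromosome, and 3.03%, 2.21%, 4.64% and 83.7% of the 18362 loci outside the stretch. The share between 0.02 and 0.25 was thus near the background.

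**Figure D3:**
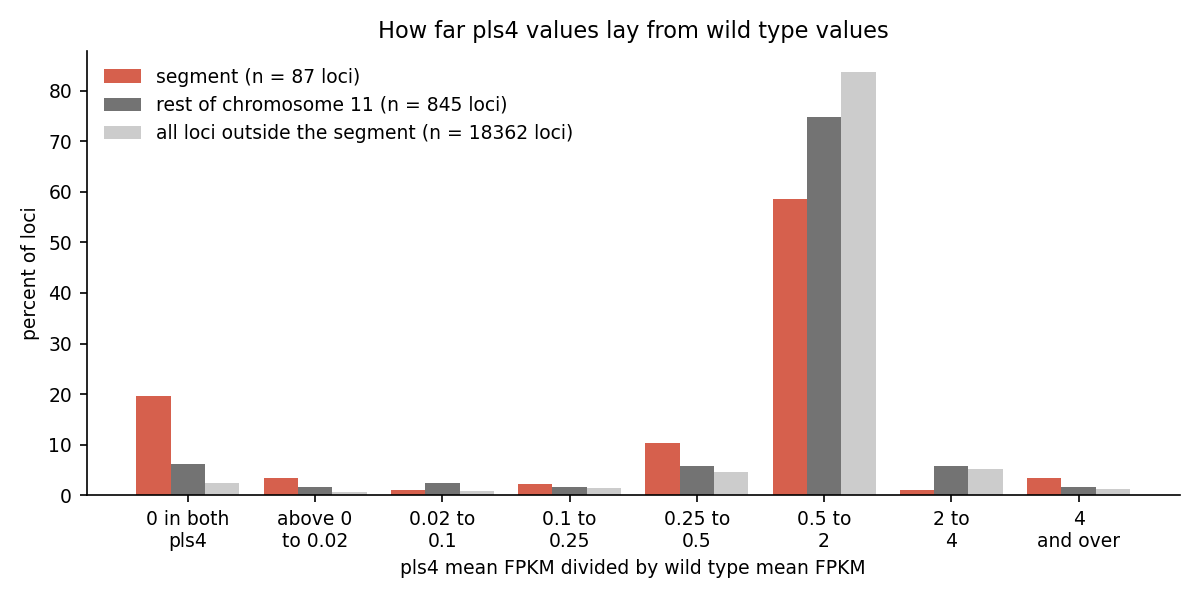
Loci with a wild type mean of at least 1 FPKM, sorted by the ratio of the pls4 mean to the wild type mean (x axis) and given as a percent of the loci of each set (y axis). In the stretch 19.5% were listed at 0 in both pls4 libraries, against 6.27% on the rest of chromosome 11 and 2.40% of all loci outside the stretch.

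The fit across all 19637 loci (limma on log2(FPKM + 1), Benjamini-Hochberg adjusted p under 0.05) called 62 of the 91 expressed members. Of these, 47 were lower and 15 higher in pls4, or 51.6% and 16.5% of the expressed members. Over all loci tested 52% were called, 18.5% lower and 33.4% higher. On the rest of chromosome 11 the shares were 58.1%, 24.8% and 33.4%. Every pls4 value lay below every wild type value at 52 members (57.1%) and above at 22 (24.2%). The background was 24.5% and 45.4% of all loci tested and 30.3% and 43.9% of the rest of the chromosome. The 52 include the 19 lost members, which lie below by definition and for which the stretch was chosen. After median ratio scaling of the libraries, 51 members were lower and 10 higher; on the rest of the chromosome that scaling turned 227 lower and 306 higher into 269 and 208. Without pls4 replicate 2, 40 members were called lower and 8 higher, and on the rest of the chromosome 190 and 173.

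Scaling moved the centre of all loci, whose median log2 fold change was 0.15 in the FPKM as deposited and -0.0032 after median ratio scaling. The median over the tested members was -0.30, which is 0.45 below the median of all loci tested as deposited (difference -0.45) and likewise after median ratio scaling (difference -0.45). The median of the rest of chromosome 11 was 0.13. With the lost loci set aside, the medians were -0.09 in the stretch and 0.17 on the rest of the chromosome. Of the 72 members left, 28 (38.9%) were called lower, against 19.3% of 855 on the rest of the chromosome. Over all loci tested the share was 16.3% of 19116. The 28 include Os11g0434800 and Os11g0474800, at 0 in both pls4 libraries and kept out of the lost count only by a wild type value under 1.

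These 28 members were lower without being counted as lost, with log2 differences from -2.58 to -0.27 and a median of -0.73. On the log2(FPKM + 1) scale the largest fall among them was at Os11g0425300 (log2 fold change -2.58 ± 0.08, SE). It went from 164, 174 and 170 FPKM in wild type to 28.9 and 26.1 in pls4. Its pls4 values lay far under the wild type ones and far above those of the lost loci. By the ratio of means, low loci among the 28 fell further. Os11g0434800 and Os11g0474800 were listed at 0 in both pls4 libraries. Os11g0443700 and Os11g0484300 kept 0.061 and 0.107 of their wild type means, against 0.162 at Os11g0425300. A run of 7 expressed loci called lower, none of them lost, reached from Os11g0441500 to Os11g0445300. At its start Os11g0441500 fell from 7.13 ± 0.47 to 1.97 ± 0.44 FPKM (-1.46 ± 0.13). At its end Os11g0445300 fell from 3.32 ± 0.48 to 1.80 ± 0.60 (-0.63 ± 0.17). Its call did not hold without a filter on low values, nor when wild type replicate 3 or pls4 replicate 1 was left out. Inside the run Os11g0444800 went from 10.5 ± 0.3 to 3.13 ± 0.13 FPKM, and the adjoining Os11g0444900 from 92.0 ± 11.8 to 63.5 ± 8.7 (both chosen after their values were seen).

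The files give no gene names. For 6 members a symbol known from the rice literature stands in the RefSeq gene table on chromosome 11 in the same order as the identifiers, and only these are named. MCM2 (Os11g0484300) encodes a subunit of the helicase that unwinds DNA at replication. It stood at 1.32, 1.06 and 1.41 FPKM in wild type and at 0.19 and 0.08 in pls4, so both pls4 values were far below the wild type ones (log2 fold change -0.99 ± 0.13). Of the other listed MCM genes, MCM3, MCM5 and MCM6 were at 0.10 FPKM or less in all 5 libraries. MCM4 and MCM7 were also listed, and their values are not given here. Of the listed markers of dividing cells, 2 passed the filter. PCNA was at 14.3 to 15.4 FPKM in wild type and 12.2 to 12.9 in pls4, with no call, while CDKB1;1 rose from between 8.45 and 9.38 to 15.5 and 16.2 (0.78 ± 0.09). 6PGDH2 (Os11g0484500) encodes 6-phosphogluconate dehydrogenase of the oxidative pentose phosphate pathway. It went from 27.4, 18.7 and 33.6 FPKM to 8.96 and 11.1 (-1.29 ± 0.23), a call lost with no filter on low values.

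Dehydrins of the RAB16 family are small protective proteins that accumulate in drying seeds and in response to abscisic acid. The 4 RAB16 genes stood at places 95, 96, 97 and 99 of the stretch. Only RAB16C (Os11g0454000) was expressed here, at 2.97, 4.03 and 3.62 FPKM in wild type and 2.75 and 1.65 in pls4. Its groups did not overlap, but the call (-0.52 ± 0.18) did not hold with the replicate block, a pseudocount of 0.1 or no filter, nor when wild type replicate 2, wild type replicate 3 or pls4 replicate 2 was left out. RAB16B (Os11g0454200) stayed under the filter, at 0, 0.05 and 0 in wild type and 0.41 and 0.52 in pls4. RAB16D (Os11g0453900) was at most 0.19 in any library, and RAB21 (Os11g0454300) was listed at 0 in all 5. Os11g0448400, which lies between the lower run and the RAB16 genes, fell from 44.4 ± 2.6 to 25.6 ± 3.4 FPKM (-0.78 ± 0.10).

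Of the 15 members called higher, 6 had a log2 difference of at least 1, which is 2-fold in FPKM + 1 rather than in FPKM. These were 6 of 91 members tested, against a background of 7.11% of all loci tested and 10.3% of the rest of chromosome 11 (94 of 917). The single gained locus, Os11g0424400, was at 0, 0 and 0.04 FPKM in wild type and at 3.87 and 3.04 in pls4. It lay near the low end of the stretch, beside Os11g0425300 in the order of expressed loci. At Os11g0440200 the level went from 0.92, 1.18 and 2.42 FPKM to 6.39 and 6.55, a log2 fold change of 1.62 ± 0.24. Os11g0470500 rose from 0.53 ± 0.20 to 3.92 ± 0.16 (1.70 ± 0.15). The latter directly precedes the lost trio that opens with Os11g0470600.

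The other rises of this size were close to each other, between Os11g0456000 and Os11g0456300. Os11g0456000 went from 1.03, 0.54 and 1.49 FPKM to 7.79 and 6.14 (2.00 ± 0.21), and Os11g0456050 from 2.76, 3.22 and 3.24 to 28.4 and 20.7 (2.63 ± 0.15). Os11g0456300, the most abundant member of the stretch, went from 223, 310 and 287 to 554 and 621 (1.11 ± 0.15). In the same patch Os11g0456200 rose by 0.53 ± 0.13, a call lost with no filter and without pls4 replicate 2, while Os11g0456100 stood at 69.8 ± 2.8 and 70.9 ± 0.7. The patch thus held rising and level loci next to each other, and none of its 5 expressed loci was lower.

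Smaller rises on the log2(FPKM + 1) scale were seen at Os11g0432800 (0.79 ± 0.17), Os11g0433200 (0.43 ± 0.08), Os11g0433900 (0.51 ± 0.11) and Os11g0484000 (0.40 ± 0.09). In FPKM, the low locus Os11g0432800 went from 0.55, 0.89 and 0.45 in wild type to 1.53 and 2.12 in pls4. Its pls4 mean was 2.90 times its wild type mean. The call of Os11g0432800 was lost with no filter, that of Os11g0433900 with no filter and with median ratio scaling, and that of Os11g0484000 with the replicate block. Os11g0482500 changed by 0.52 ± 0.14 and Os11g0482000, at 117 to 147 FPKM in wild type and 164 to 173 in pls4, by 0.37 ± 0.11. Both calls went with no filter, with median ratio scaling or the replicate block, and when wild type replicate 3 or pls4 replicate 1 was left out; that of Os11g0482000 also went after quantile normalization and without pls4 replicate 2.

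Abundant members were among those with no call. Os11g0455500 stood at 195, 187 and 183 FPKM in wild type and 194 and 216 in pls4, Os11g0425600 at 88.5 ± 7.0 and 98.2 ± 11.4, and Os11g0455800 at 123 ± 5 and 111 ± 6. The first 2 of these overlapped between the genotypes, and Os11g0455800 was called lower with median ratio scaling (-0.33) and after quantile normalization (-0.25). In all, 29 expressed members had no call, with log2 differences from -0.30 to 0.55. The longest run of them held 3 loci and was met first from Os11g0429100 (2.36 ± 0.27 and 2.31 ± 0.23 FPKM) to Os11g0429433 (4.05 ± 1.12 and 4.96 ± 0.02), right after the first lost locus. At 26 expressed members the pls4 mean lay between 0.8 and 1.25 times the wild type mean.

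The other 109 members were under the filter, 50 of them listed at 0 in all 5 libraries. Of the 59 with some signal, 6 were above 0 in every wild type library and at 0 in both pls4 libraries, and 2 showed the reverse. These shares, 10.2% and 3.39%, compare with 10.8% and 6.36% of 629 such loci on the rest of chromosome 11. Over all 10029 such loci of the series they were 5.45% and 4.07%. The strongest of the 6 was Os11g0444400, at 0.76, 0.76 and 0.39 FPKM in wild type.

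Along the whole of chromosome 11, cut into windows of 200 identifiers set from the ends of the stretch, losses were unevenly spread. The first 3 windows held 0 losses among 265 expressed loci. In the 11 other windows the share of expressed loci lost ranged from 0% to 17.2%, the highest being 17 of 99 from Os11g0545000 to Os11g0588766. The window before the stretch had 11 of 98 and the window after it 8 of 87. Gains numbered 1 of 91 in the stretch and 5 of 87 in the window after it. The share of expressed loci called lower was 51.6% in the stretch and 5.17% to 40.4% in the other windows, and the share called higher was 16.5% against 24.2% to 43.1%. By chromosome, losses made up 8.04% of expressed loci on chromosome 11 and 6.10% on chromosome 12, and between 0.667% and 3.68% on the others.

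**Figure D4:**
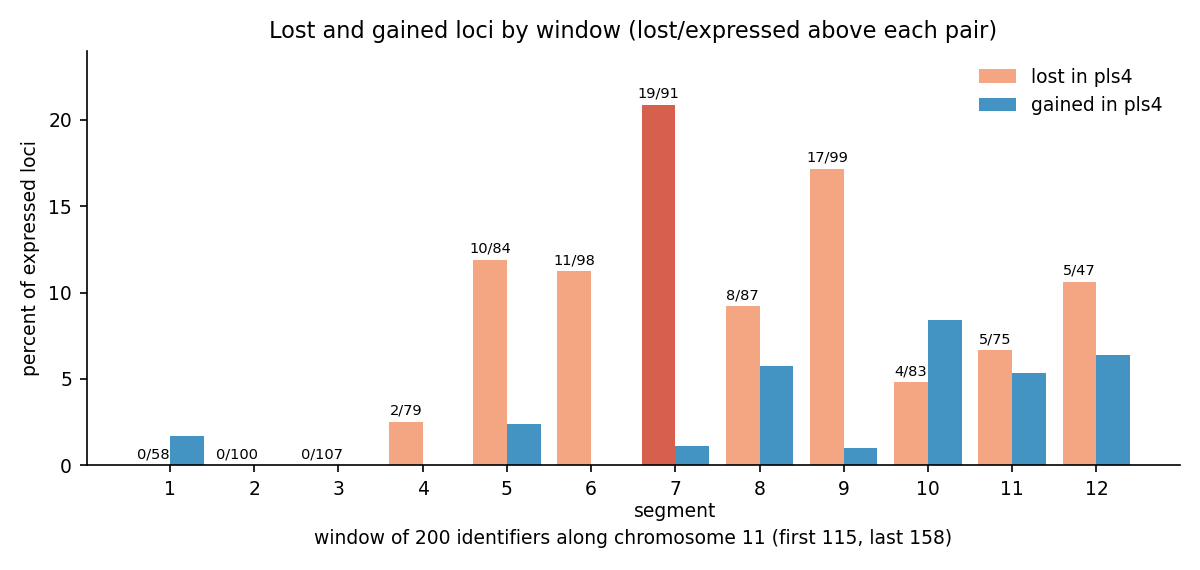
Chromosome 11 in 12 windows of 200 identifiers (the first holds 115 and the last 158), with the percent of expressed loci lost and gained in pls4 on the y axis. The stretch is window 7, with 19 of 91 expressed loci lost, and windows 1 to 3 hold no lost locus.

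Loci just inside and outside the ends of the stretch were compared by their values alone. Before it, no lost locus was found between Os11g0309000 and Os11g0429000, a gap of 54 identifiers with 26 expressed loci that reaches into the stretch. The nearest expressed locus outside, Os11g0417400, fell from 1.31, 1.21 and 1.31 FPKM to 0.35 and 0.37, and the first inside, Os11g0423800, went from 4.74 ± 0.23 to 3.69 ± 0.16 (-0.29 ± 0.10), a call lost under every alternative that left out a library, among others. Beyond the closing end, Os11g0485500 stood at 48.6, 46.8 and 50.8 FPKM in wild type and 48.4 and 37.8 in pls4. Only 3 identifiers past the end, Os11g0486000 was lost (4.12, 3.11 and 3.03 FPKM, then 0 and 0), and Os11g0490300 followed. Between these, Os11g0487700 (1.72, 2.28 and 4.21 FPKM, then 0.11 and 0) missed the definition by its value in pls4 replicate 1. Losses thus continued past Os11g0485200 at a lower density.

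Lost loci were also counted by the form of the identifier. The stretch was chosen for its lost loci, so lost shares above those of the rest of the chromosome follow from that choice. Of the 78 expressed members whose identifier ends in 00, 15 were lost (19.2%), and of the 13 with another ending, 4 were (30.8%). On the rest of the chromosome these shares were 6.39% of 814 and 9.71% of 103.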

How the data were processed

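Leaf RNA from 3 wild type and 2 pls4 samples was sequenced, and the authors deposited FPKM values, 1 table per library, per the file headers. TopHat2 (version 2.1.1) and the genome build IRGSP-1.0 are named in the submitters' processing notes. How fragments were counted, with which annotation and strand setting, how reads shared by similar loci were handled and whether libraries were scaled to each other is not stated in the labels, so values of near-identical or overlapping loci are uncertain. No read counts were used.

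The whole table was tested with limma 3.58.1 (R 4.3.3), with a trend in the variance and Benjamini-Hochberg adjustment, on log2(FPKM + 1) of every locus that reached 1 FPKM in 2 or more libraries. This scale understates changes of low loci. Both groups entered a single fit with no further terms, which was tested on simulated data. That simulation gave all loci the same spread and changed only loci well above the filter. It therefore does not cover calls at low loci or at loci listed at 0 in a group. No fold is given against a group listed at 0. The loci named by rule were all lost or gained members, the 12 largest calls in each direction, the 8 most abundant members, ends of the stretch and of runs, and 8 listed loci. Others were named after their values were seen, among them Os11g0434800, Os11g0438700, Os11g0443700, Os11g0444400, Os11g0456100 and Os11g0487700. Calls of these other loci were not followed under the alternatives. Of the listed symbols, 2 are not in the RefSeq table (ASM3414082v1), and those loci are given by identifier; marker and other MCM names were not checked. The members and lists were chosen with earlier results of these data known. No genome sequence was used here, and none is printed. The libraries were distinct, with at most 0.276% equal values among loci of 5 FPKM or more.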

Additional observations from a re-analysis of the deposited data

How the results depend on the processing

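Leaving out each library in turn gave 38 to 41 members called lower, 8 to 16 higher, 19 to 21 lost, 1 gained and a median log2 fold change of -0.40 to -0.26; the rest of chromosome 11 gave 190 to 206 lower, 173 to 306 higher and 63 to 69 lost. A lone pls4 library was assumed to vary like the others. The median over members was -0.36 with a pseudocount of 0.1, 0 with no filter (many loci at 0), -0.45 with median ratio scaling and -0.39 after quantile normalization. With a filter of 5 FPKM, under which fewer loci enter, 32 members were lower and 12 higher. On the rest of the chromosome 119 loci were lower and 228 higher. Requiring 2 FPKM for presence, which can only lower the count, left 38 of the 62 lost loci there. Requiring 5 left 20 there and 12 in the stretch, and 0 gained; 0 were gained also when absence required a value of 0. Of 41 called loci that the naming rule chose, 22 were tested and called the same way under all 12 alternatives, 9 lost no call but fell under the filter in at least 1 alternative, and 10 lost a call in at least 1. Values near 0 with no call changed sign at Os11g0425600 (-0.031) and Os11g0455500 (-0.060) with median ratio scaling, and at Os11g0429100 (-0.093 to 0.051 over the libraries left out in turn).

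The replicate number was also fitted as a replicate block, although it is not known to pair samples. Deviations of same-numbered libraries correlated at -0.095 for number 1 and -0.14 for number 2. With 2 pls4 libraries, their deviations from the group mean mirror each other. The cross-numbered correlations of wild type replicates 1 and 2 were therefore 0.095 and 0.14, so these values cannot decide whether the numbers pair samples. The block gave 39 of the 91 expressed members lower and 10 higher, with a median of -0.32. On the rest of chromosome 11 it gave 197 lower and 221 higher of 917 loci, with a median of 0.11. The median over all loci tested was then 0.14. Absolute depth is unknown, so no limit can be set on what a listed 0 allows.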
